A study of Mus musculus with 20 samples.

Results

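The genes described here are 40 interferon-stimulated genes measured in mouse liver: Ifit1, Ifit2, Ifit3, Ifit3b, Isg15, Usp18, Irf1, Irf7, Irf8, Irf9, Stat2, Oasl1, Oasl2, Oas1a, Oas2, Oas3, Rsad2, Mx1, Mx2, Gbp2, Gbp3, Gbp6, Gbp7, Gbp10, Igtp, Irgm1, Irgm2, Iigp1, Ifi44, Ifi47, Ifi27, Ifih1, Ddx60, Xaf1, Cxcl9, Cxcl10, Tap1, Tap2, B2m and Nlrc5. They were chosen by symbol, and all 40 were found in both RNA-seq tables, 1 for each sex, and joined between them by Ensembl gene identifier. The table of the males held 56884 genes and that of the females 18149, and 18132 genes had a mean above 0 in both.

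The study asked what the loss of midnolin (Midn), a nuclear protein that delivers transcription factors to the proteasome, does to the liver of male and female mice. Liver RNA was sequenced in each sex from 3 WT and 3 Midn-T animals, made on C57BL/6J and aged 11 to 14 weeks. The study calls the controls wild type (WT), while their genotype label is Midn XTR, its name for the allele with the gene-trap cassette in the expressed orientation. By that label the controls would carry the cassette. The Midn-T libraries are labelled Midn TR, the trapped form that Alb-Cre makes by turning the cassette over. The study describes this inactivation as selective for hepatocytes, and which liver cells carried the trapped form was not examined here. Whether the controls also carried Alb-Cre is not stated in the sources used here.

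For each gene and sex, the value analysed is 1 mean over the 6 libraries of that sex, WT and Midn-T together, so the data described below hold the level of each gene in the liver of each sex and no contrast between the genotypes. No spread between mice, and therefore no test, can be had from such a mean. Differences between the sexes are given as ratios without a p-value, and a difference of any size between single mice is not visible in them. Midn itself had a mean of 1672 in males and 1357 in females, which pools both genotypes and so does not check the labels.

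Interferons are secreted proteins that infected or alarmed cells release. Type I interferons signal through the receptor pair Ifnar1 and Ifnar2 and the kinases Jak1 and Tyk2 to a complex that holds Stat2 and Irf9 and binds the interferon-stimulated response element, while interferon gamma acts on the gamma-activated site. The induced genes recognise viral RNA, block translation or replication, disrupt pathogen vacuoles, present peptides on MHC class I and recruit lymphocytes, and many are also transcribed at a low level in tissue that is not infected. In liver, hepatocytes, Kupffer cells and endothelial cells can all respond.

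The response element has a known consensus, so the promoter sequence of each gene was read before its level. In the window from 250 bases before to 50 bases after the start site of each gene's canonical transcript (GRCm39, GENCODE M39), the core of the response element, GAAANNGAA on either strand, was present in 23 of the 40 genes (57.5%) and in 1911 of 21770 protein-coding promoters of the same length (8.78%). The core of the gamma-activated site, TTCNNNGAA, which reads alike on both strands, was present in 8 of the 40 genes (20%) and in 8.81% of all promoters. Both cores were found in 5 genes, their matches overlapped in 1 of them (Ifi47), and 14 genes had neither. A match is a description of letters and not a measured binding site, and a window without one says only that these letters are not in it.

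The stretches below are examples from before the start site in which several cores lie near each other, with those of the chemokine pair Cxcl9 and Cxcl10, 1 core each, for comparison. They are printed 5′ to 3′ on the strand of the gene with the matches to the response element core in capitals. Where the core lies on the other strand, the capitals show its reverse complement.
Isg15, chr4:156285318-156285368, minus strand: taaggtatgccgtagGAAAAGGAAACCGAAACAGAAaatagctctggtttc
Irgm1, chr11:48762248-48762292, minus strand: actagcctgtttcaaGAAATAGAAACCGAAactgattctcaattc
Oas3, chr5:120915770-120915814, minus strand: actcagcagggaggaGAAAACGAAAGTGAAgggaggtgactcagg
Ddx60, chr8:62381053-62381122, plus strand: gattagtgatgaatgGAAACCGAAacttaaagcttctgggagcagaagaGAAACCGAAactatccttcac
Usp18, chr6:121222768-121222829, plus strand: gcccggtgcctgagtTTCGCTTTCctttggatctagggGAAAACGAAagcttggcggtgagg
Ifit1, chr19:34618165-34618228, plus strand: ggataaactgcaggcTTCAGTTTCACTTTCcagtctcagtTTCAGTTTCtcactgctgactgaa
Ifit3, chr19:34560759-34560850, plus strand: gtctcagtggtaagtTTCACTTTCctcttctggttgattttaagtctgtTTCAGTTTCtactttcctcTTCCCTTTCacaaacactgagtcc
Ifit3b, chr19:34585155-34585246, plus strand: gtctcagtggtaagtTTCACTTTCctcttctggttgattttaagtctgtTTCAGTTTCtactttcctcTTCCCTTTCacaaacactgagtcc
Cxcl9, chr5:92476090-92476128, minus strand: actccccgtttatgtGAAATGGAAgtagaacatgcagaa
Cxcl10, chr5:92496938-92496976, minus strand: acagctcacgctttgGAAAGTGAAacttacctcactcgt

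The Isg15 stretch runs from 65 to 15 bases before the start site and holds 3 overlapping matches in a row. The stretches of Ifit3 and Ifit3b, neighbouring genes on chromosome 19, were identical over their 92 bases, with 3 matches each, although they lie at different distances from the annotated start sites. Ifit1 also held 3 matches. Across the 23 genes there were 37 matches, of which 31 lay before the start site and 27 within the 150 bases before it. At least 2 matches were present in 10 of the 40 genes (25%) and in 0.726% of all promoters. The core was found in both genes of ISG15 and its protease, in both chemokines, in 3 of 4 IFIT genes, in 5 of 7 RNA sensors and oligoadenylate synthetases and in 7 of 10 GTPases, but in 2 of 6 regulators, 2 of 6 other effectors and none of the 3 antigen presentation genes. Of the 8 genes with the gamma-activated core, 4 were GTPases.

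**Figure D1:**
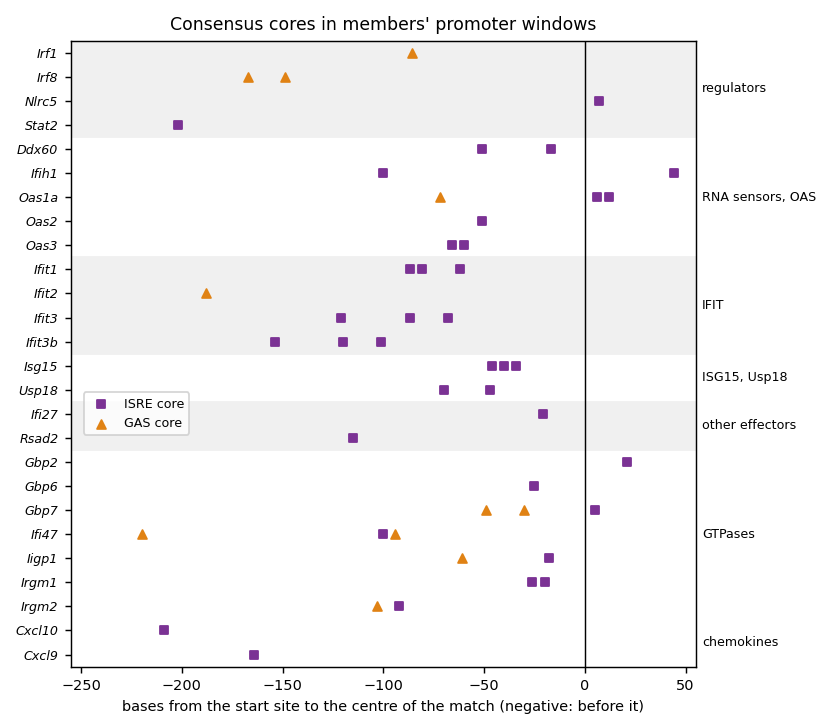
Position of each consensus core match in the promoter windows of the 26 genes that hold one, grouped by role. The x axis is the distance in bases from the start site to the centre of the match, with negative values before it, and squares mark the interferon-stimulated response element core and triangles the gamma-activated site core. Of 37 response element matches, 31 lie left of the start site.

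All 40 genes were expressed, with means of at least 61.4 normalized counts in males (Oas3) and 70.2 in females (Mx1). Their median mean was 326 in males and 410 in females, against 215 and 230 for the 18132 genes in both tables. In males, 29 of the 40 lay above the median gene, and in females 31 did. Against protein-coding genes alone the numbers fell to 17 and 19, so the genes lay around the middle of the protein-coding genes listed in both sexes. The female means start at 6.61, so genes lower than that in females are not among the 18132. Against all genes above 0 in males, all 40 lay above the male median. Only B2m and Iigp1 were in the top 10% of genes in both sexes. Each mean was also expressed as a share of the sum of all means of that sex, in parts per 1000000 (ppm). Together the 40 genes made up 2042 ppm in males and 2194 ppm in females, of which B2m alone took 45.8% and 41.9%.

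Levels between genes are compared below as mean normalized counts per kb of annotated exon. On this scale the genes spanned from 8.68 (Oas3) to 13447 (B2m) in males and from 12.0 (Oas3) to 13417 (B2m) in females. In the male libraries, counting error alone would give a mean an uncertainty of 0.246% (B2m) to 5.29% (Oas3) if all 6 libraries shared 1 expected level. This covers the sampling of reads only and not the variation between mice.

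**Figure D2:**
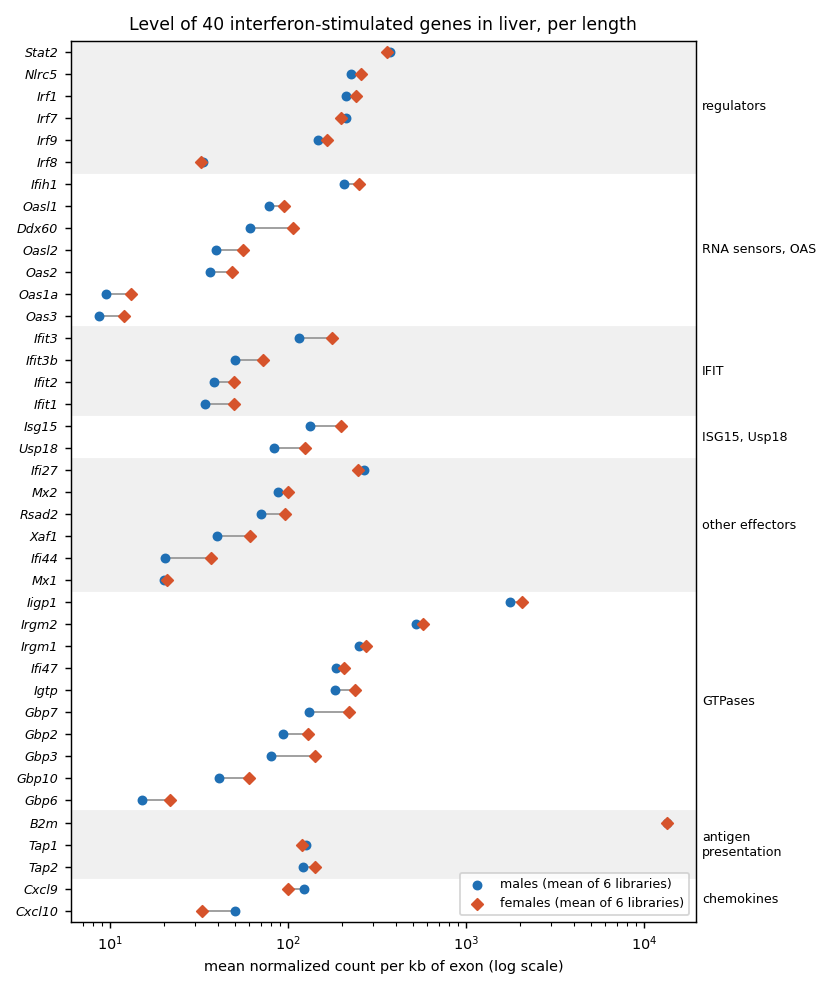
Mean normalized count per kb of exon (x axis, log scale) of the 40 genes, grouped by role and ordered by the male level, with 1 circle for males and 1 diamond for females. Each point is a mean over 6 libraries, WT and Midn-T together, with no error bar since single libraries are not in the mean. B2m and Iigp1 lie to the right of all other genes, and Oas3 and Oas1a to the left.

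All 6 regulators were above the median gene in both sexes, and all but Irf8 were also above the median of protein-coding genes. Stat2, a subunit of the type I interferon complex, had the highest level of the group, with a mean of 2353 normalized counts in males and 2250 in females (373 and 357 per kb). Nlrc5, the transactivator of MHC class I genes, had means of 1914 and 2166. Irf1, which drives the response to interferon gamma, had 992 and 1123, and Irf9, the DNA-binding subunit of the type I complex, had 852 and 950. Irf7, which amplifies type I interferon production, had 794 and 747. Irf8, a factor of macrophages and dendritic cells, was the lowest regulator at 33.1 and 32.1 per kb. Female over male ratios of these shares ran from 0.926 (Irf7) to 1.11 (Irf1 and Nlrc5), and the group's summed share was 239 ppm in males and 245 in females.

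Among the sensors of double-stranded RNA and the oligoadenylate synthetases, Ifih1, which encodes the RNA sensor MDA5, stood highest at 206 per kb in males and 251 in females, with means of 1852 and 2254. The helicase gene Ddx60 had means of 527 and 918, a female over male ratio of 1.72. The oligoadenylate synthetases, which activate RNase L when they bind double-stranded RNA, were among the lowest of the 40 genes. Oas3 had means of 61.4 and 84.7, Oas1a 76.0 and 104, and Oas2 162 and 217. Of the 2 related Oasl genes, Oasl1 had means of 203 and 245 and Oasl2 250 and 356. All 7 genes of the group had the higher share in females, with ratios from 1.19 to 1.72.

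Of the 4 IFIT proteins, Ifit1 binds viral RNA that lacks the host cap methylation. Ifit3 was the highest of the 4 at 114 per kb in males and 177 in females, with means of 329 and 509. Ifit1 had means of 252 and 366 and Ifit2 224 and 291, and these genes changed places as the lowest per kb. Ifit3b had means of 102 and 146. All 4 were higher in females, with ratios from 1.27 (Ifit2) to 1.52 (Ifit3), and their summed share was 29.99 ppm in males and 42.7 in females. Isg15, a ubiquitin-like protein that is joined to other proteins during the response, had means of 104 and 155 (133 and 198 per kb). Usp18, the protease that removes it and a brake on the type I receptor, had 268 and 405. Their ratios, 1.47 and 1.49, were nearly alike.

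The other antiviral effectors were spread widely. Ifi27 was the highest at 268 per kb in males and 245 in females, and its share was lower in females, with a ratio of 0.901. Rsad2, the radical SAM enzyme viperin, had means of 303 and 414. Mx2, a gene of the dynamin-like GTPase family, had 314 and 359, and whether its allele makes a working protein was not examined. Its neighbour Mx1, whose allele in C57BL/6J carries a deletion and makes no working protein, had 67.6 and 70.2. Mx1 was the lowest of the group per kb, and its ratio of 1.02 was close to even. Ifi44 had means of 125 and 226, a ratio of 1.77, the largest of the 40 genes. Xaf1, a promoter of apoptosis, had 190 and 290, a ratio of 1.51.

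The interferon-inducible GTPases, which act on the vacuoles of intracellular pathogens, included the second highest of all 40 genes. Iigp1, an effector of the immunity-related GTPase family, had means of 11260 in males and 13136 in females (1769 and 2064 per kb). Irgm2 and Irgm1, regulators of that family, had means of 1949 and 2146 and of 1590 and 1724. Igtp, another regulator of the family, had 831 and 1080, and Ifi47 525 and 581. In the guanylate-binding protein family, Gbp7 had 784 and 1309, Gbp3 337 and 598, Gbp2 240 and 328, and Gbp10 239 and 354. Gbp6 was lowest, with 103 and 147 (15.2 and 21.6 per kb). All 10 had the higher share in females. Ratios ran from 1.07 (Irgm1) to 1.28 (Igtp) in the immunity-related GTPases and from 1.34 (Gbp2) to 1.74 (Gbp3) in the guanylate-binding proteins. These families were set apart after the values were seen, and the levels of Gbp6, Gbp7 and Gbp10 are uncertain because they share sequence with other genes.

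B2m, the light chain of MHC class I, was the highest of all 40 genes with means of 28319 and 28257, a ratio of 0.982. Tap1 and Tap2, the subunits of the peptide transporter that loads MHC class I, had 750 and 715 and 575 and 676, at ratios of 0.938 and 1.16. Per kb they were nearly equal in males, 125 and 121, and differed more in females, 119 and 142. The chemokines Cxcl9 and Cxcl10, ligands of Cxcr3 on T cells, were the only role group in which every member had the lower share in females. Cxcl9 had means of 371 and 303 (123 and 100 per kb), and Cxcl10 had 112 and 74.0 (49.9 and 32.9 per kb). Their male over female ratios were 1.25 and 1.54.

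Between the sexes, 32 of the 40 genes had the higher share in females (80%) and 8 in males, against 56.5% of all 18132 genes higher in females. The 8 were Cxcl10, Cxcl9, Ifi27, Irf7, Tap1, Stat2, Irf8 and B2m. The 18132 genes are filtered on 1 side, since female means start at 6.61 and male means do not. Genes low in females are left out while genes low in males are kept, and 12172 genes above 0 in males had no female value. The median female over male ratio was 1.24 for the 40 genes, a log2 ratio of 0.31, and 1.04 for all genes, a log2 ratio of 0.05. The 25th and 75th percentiles of the log2 ratio over all genes were -0.14 and 0.31. Of the 40 genes, 20 lay above that range and 3 below it. All 40 genes had means of at least 50 in both sexes. Among the 12436 genes that did, 49.7% were higher in females and the median ratio was 0.999, with percentiles of -0.16 and 0.19, and 24 of the 40 genes lay above that range and 2 below it. The male and female tables were normalized separately, and each mean was divided by the sum of its table to make them comparable.

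None of the 40 genes differed 2-fold. Across all genes, 4.03% were at least 2-fold higher in females and 1.44% at least 2-fold higher in males. Among the 12436 genes with means of at least 50 in both sexes, these shares were 1.34% and 1.15%. At 1.5-fold, 6 genes were higher in females (15% of the 40, against 11.5% of all genes and 5.08% of those with means of at least 50), namely Ifi44, Gbp3, Ddx60, Gbp7, Ifit3 and Xaf1, and 1 was higher in males, Cxcl10 (2.5%, against 4% and 3.47%). With 1 mean per sex, these ratios have no replicate check, and whether they exceed the spread between mice was not tested. Ordered by level per kb, 13 of the 40 genes moved 3 or more places between the sexes, by up to 7 places, as Cxcl10 did from place 28 in males to 35 in females. Pearson's r between the log2 means of males and females was 0.986 across the 40 genes and 0.978 across all genes. It is a description of genes that span a wide range of levels and share their lengths between the tables.

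**Figure D3:**
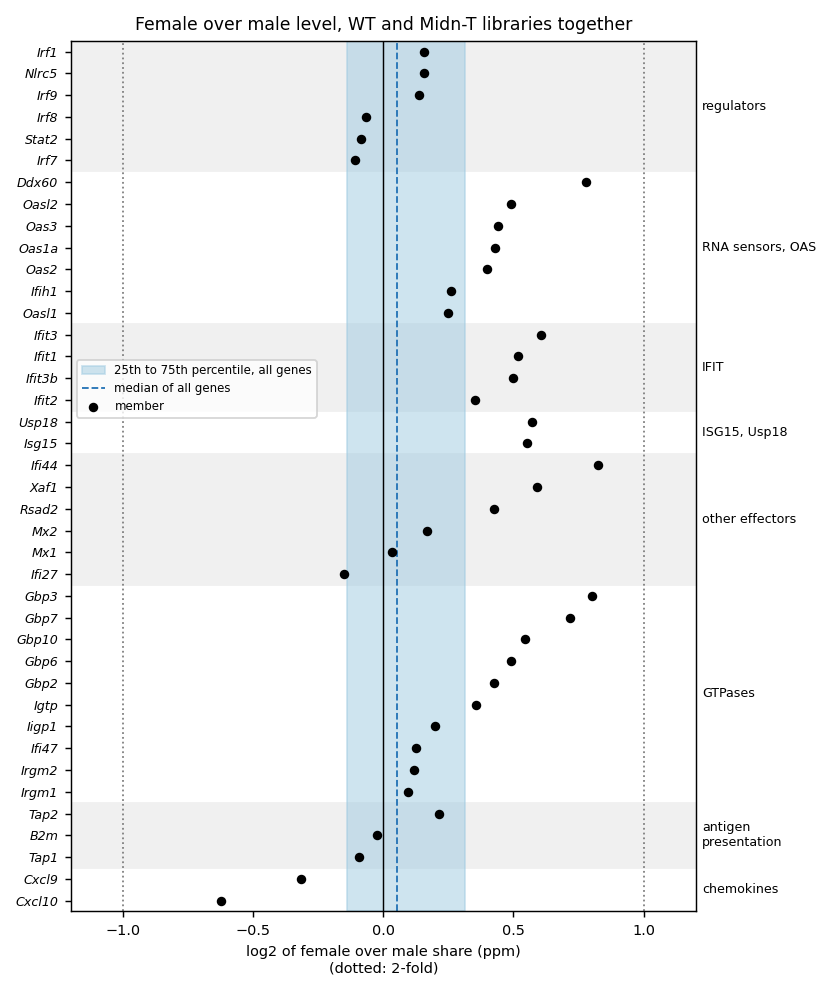
Log2 of the female over male share (each in ppm) for each of the 40 genes (points), grouped by role, with WT and Midn-T libraries together. The shaded band runs from the 25th to the 75th percentile of all 18132 genes, -0.14 to 0.31, the dashed line their median and the dotted lines a 2-fold difference. These genes leave out those low in females but keep those low in males. No point reaches a dotted line, all 10 GTPases, all 7 RNA sensors and oligoadenylate synthetases and all 4 IFIT genes lie right of 0, and both chemokines lie left of it.

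A further 45 genes of the pathway were read beside the 40. Of these, 35 were in both tables, none differed 2-fold, 25 had the higher share in females, and their median ratio was 1.02. Across all 18132 genes, 56.5% were higher in females, 4.03% at least 2-fold, and 1.44% were at least 2-fold higher in males. Among genes with means of at least 50 in both sexes, these shares were 49.7%, 1.34% and 1.15%. Of the 10 interferon genes, 8 were listed at 0 in the male table, where Ifng had a mean of 1.03 and Ifnk 0.424, and the female table, whose lowest mean is 6.61, listed none. The receptor genes Ifnar1 and Ifnar2 had means of 1599 and 1543 and of 239 and 312, and Ifnlr1, the specific chain of the interferon lambda receptor, 4.26 and 6.76. Rigi, the RNA sensor related to Ifih1, had 1155 and 1619, a ratio of 1.38. H2-K1, a heavy chain paired with B2m, had 23387 and 24105, and the membrane protein gene Ifitm3 6323 and 7042. The inhibitors Socs1 and Socs3 had 11.5 and 12.5 and 268 and 253.

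Markers of the cell types in liver were read beside these values, since a bulk level cannot tell fewer cells of a type from less RNA per cell. In these pooled means, which do not check the label of a single library, the 5 hepatocyte markers were all high. They summed to 72923 ppm in males and 88170 ppm in females, a sum that Alb leads with a ratio of 1.33, while the other 4 had ratios from 0.655 (Cyp3a11) to 0.916 (Ttr). The summed share of 6 Kupffer cell markers was 245 ppm in males and 251 in females, with single ratios from 0.648 (Marco) to 1.27 (Vsig4). The 5 endothelial markers summed to 360 and 410, and the 5 stellate cell markers to 312 and 400, with all 5 higher in females. Markers of T and NK cells summed to 3.09 and 3.48, of B cells to 3.82 and 4.11, and of plasmacytoid dendritic cells to 1.10 and 1.16. The cholangiocyte markers Krt19, Epcam and Sox9 had ratios of 1.90, 1.41 and 0.841. The neutrophil genes S100a8 and S100a9 had ratios of 0.577 and 0.590. Saa1, an acute-phase gene of hepatocytes, had a mean of 3870 in males and 486 in females. The part of these differences in the ratios of the 40 genes was not tested.

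Several of the 40 genes share sequence with another annotated gene, either in a copy elsewhere or in exons that overlap. The authors counted uniquely mapped reads, so reads from a copy or from exons overlapping on the same strand may not be counted for the gene. These levels are therefore uncertain. Sharing was read from GENCODE M39, while the authors counted with an Ensembl gene set of another release, where overlaps may differ. Windows were sought on both strands, so exons overlapping on the opposite strand also count as shared. Reads were counted by strand, so such an overlap need not lose reads, and it was not told apart from a copy. In GENCODE M39, at least 10% of the 100-base windows of the canonical transcript occurred unchanged in another gene's transcript for 7 genes. The share was 82.2% for Gbp6 and 76.1% for Gbp10, mostly with Gm43302, whose exons overlap 25.4% of the exon bases of Gbp6 and 44% of those of Gbp10 on the same strand. It was 40.3% for Oas1a, 27.2% for Ifit3b and 26.6% for Ifit3, 21.2% for Isg15 and 11.2% for Gbp7, where the pseudogene Gm43802 overlaps 10.6% of the exon bases. For these 3 Gbp genes part of the sharing is therefore the same bases annotated more than once. In 16 genes no window was shared. Among the 33 genes under 10%, 25 had the higher share in females, and their median ratio was 1.15 in place of 1.24.

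**Figure D4:**
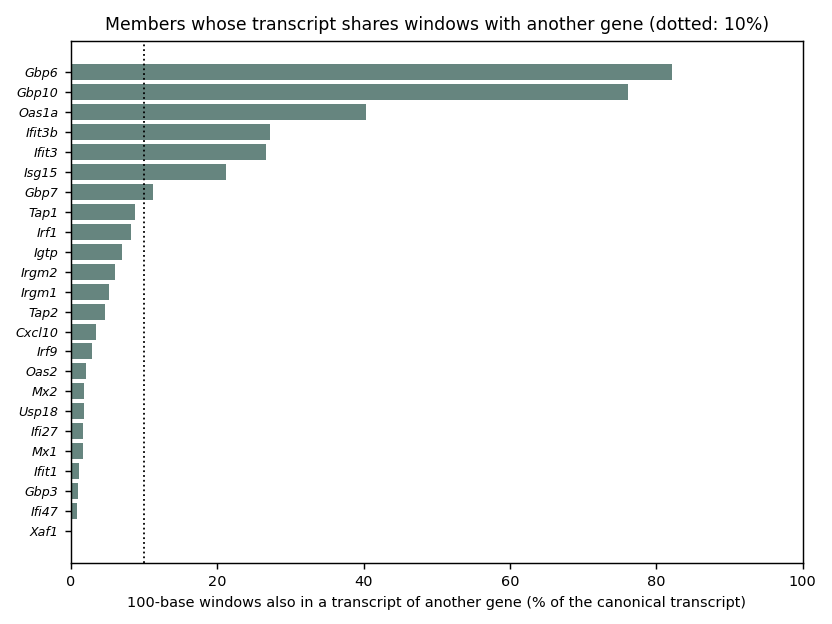
Share of 100-base windows of the canonical transcript that also occur, on either strand, in another gene's transcript (x axis, percent). Shown are the 24 genes with any shared window. The dotted line marks 10%, and 7 bars pass it, led by Gbp6 at 82.2% and Gbp10 at 76.1%.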

How the data were processed

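RNA was made into stranded, rRNA-depleted libraries and sequenced as paired reads. The authors aligned reads with STAR (2.7 in the submitters' processing notes) to GRCm39 and counted uniquely mapped reads per Ensembl gene with HTSeq. The authors fitted DESeq2 within each sex and deposited the mean normalized signal per gene: counts divided by library size factors, averaged over the 6 libraries of that sex. The remaining columns hold the authors' comparison of Midn-T with WT (fold changes, errors and p-values) and were not used, nor were the ATAC-seq peak lists. Per-library counts were not analysed here.

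The depth of single libraries is not in the means, except that 4087 male means between 0 and 0.4 were all sums of whole reads of 6 step sizes within a tolerance of 2e-05. These steps give male size factors from 0.598 to 1.27, a 2.13-fold range, without showing which library is which. The lower end was set by 1 library, and the second lowest factor was 0.938. Female means start at 6.61 and give none. The means summed to 3.03e+07 in males and 3.08e+07 in females.

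Each mean was divided by its table's sum (share in parts per 1000000, ppm) or by the union of the gene's exons in GENCODE M39 (per kb). The authors counted with an Ensembl gene set of another release, and 56323 of their 56884 genes were in GENCODE M39. Exon lengths and overlaps may therefore differ from those behind the counts. Shared 100-base windows and promoter matches were computed in Python 3.11.15 with numpy 2.4.6, numba 0.67.0 and pandas 2.3.3. The search for promoter matches and the fold limits were tested on simulated data, and the search for shared windows was not. Members, roles and lists were chosen with earlier results of these data known. All 40 members were named by role, with the highest and lowest per kb of each role, every member past 2-fold and those that share sequence with another gene. With no replicate value there was no test.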

Additional observations from a re-analysis of the deposited data

How the results depend on the processing

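Of 32 values recomputed under other settings, 25 stayed within 1.5 times the reported value. The 25 include 2-fold counts of 0 that stayed at 0, overlaps of the 10 highest genes, and a filter that could remove none of the 40 genes. They also include the median set by all genes above 0 in each sex. Above that median lay all 40 genes in males and 31 in females, in place of 29 and 31. With protein-coding genes setting the median, 17 of the 40 genes lay above it in males and 19 in females, in place of 29 and 31. A limit of 1.5-fold in place of 2-fold gave 6 genes higher in females and 1 higher in males, in place of none. Genes with means under 50 were also left out, a minimum chosen after seeing the data for this limit. None of the 40 genes had such a mean, so this could not change their numbers. A limit of 5% of windows, chosen after seeing the data, gave 12 genes that share sequence with another gene, in a copy or in overlapping exons, in place of 7. Between 31 and 33 genes were higher in females under the other scalings and the pseudocount. The coding length of the RefSeq protein was not run, since no protein table was used here, and the GENCODE coding length took its place. No paired analysis was possible because the values are means over the libraries of each sex, and for the same reason no library could be left out.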
